A study of Mus musculus with 72 samples.

Results

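The genes described here are 56 members of the Wnt signalling system in mouse olfactory epithelium, out of 54532 genes in the count table. They were taken from a fixed list of symbols and matched to the counts by Ensembl gene ID, and every one of the 56 was found. The list holds 18 Wnt ligands, 2 genes for ligand release, 9 secreted inhibitors and 4 R-spondins. It also holds 8 receptors and co-receptors, 2 ubiquitin ligases that remove receptors, 4 cytoplasmic components, 4 TCF/LEF transcription factors and 5 target genes. The Frizzled receptors are not members. A filter on low counts left 46 of the 56 for testing, and the others are given by level alone.

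Wnt proteins are secreted lipid-modified ligands that bind Frizzled receptors together with a co-receptor. With the co-receptors Lrp5 and Lrp6 this stops the destruction of beta-catenin, which then enters the nucleus, binds TCF/LEF factors and switches on target genes such as Axin2. Other co-receptors, among them Ror1, Ror2 and Ryk, are used in branches that do not need beta-catenin. In the olfactory epithelium, which makes new sensory neurons throughout life, Wnt signalling is known for its part in basal stem and progenitor cells and in the growth of sensory axons.

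The study measured total RNA by sequencing in 72 libraries of olfactory epithelium from young mice, in 25 groups of 2 or 3 libraries. Control mice carried Omp-IRES-tTA, in which the olfactory marker protein gene (Omp) drives the tetracycline transactivator. The mice called ectopicFzd1 carried Omp-IRES-tTA together with tetO-Fzd1-IRES-tdTomato, so the transactivator switched on the Wnt receptor Fzd1 and the red fluorescent protein tdTomato in cells that use Omp. The Fzd1lacZ mice, marked homo in their titles, were labelled with the genotype Fzd1-lacZ, a mutant of Fzd1 itself, and they were compared with the same Omp-IRES-tTA control because no wild-type library without that allele was analysed here. All 3 genotypes were sampled without doxycycline (DOX) at postnatal day (P) 0, 3, 7, 10 and 14. Control and ectopicFzd1 were also sampled at P1, 3, 7, 10 and 14 after DOX from P0 to the day of sampling; DOX stops the transactivator from working. The tdTomato gene comes with Fzd1 in every ectopicFzd1 library, so the effects of these transgene products cannot be told apart.

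The libraries held 1314528 to 8788000 counts in genes, of which the members took 0.0701% to 0.380%. A family of 13 genes with satellite-like counts took 0.0540% to 73.8% (median 7.54%), over 25% in 8 libraries, and it moves the TPM of every other gene down where it is high. Levels are therefore compared between libraries as CPM, counts scaled to a common library total by TMM, and between genes as TPM, which is scaled per length of the gene. Omp, the defining gene of mature olfactory neurons, was detected in every library, but it stood apart by group. In control without DOX it was at 185 to 287 CPM at P0, 27.8 to 27.9 at P3, 30.0 to 30.1 at P7, 46.9 to 61.1 at P10 and 1329 to 1514 at P14. In control with DOX it was at 218 to 228 CPM at P1, 23.8 to 36.2 at P3, 412 to 673 at P7, 865 to 890.1 at P10 and 1072 to 1444 at P14. Every ectopicFzd1 library was at 12.4 to 195 CPM and every Fzd1lacZ library at 422 to 3018 CPM. The summed level of 15 mature neuron markers did not follow Omp: in control without DOX it was 3331 to 3848 CPM at P10 and 1334 to 2005 at P0. The control groups are thus not alike in Omp, the gene that carries the tTA allele, and its part in the comparisons of age and genotype was not tested. Fzd1 stood at 20.9 to 44.3 CPM in control and 3.48 to 20.3 CPM in Fzd1lacZ. With DOX, ectopicFzd1 stood at 22.0 to 64.0 CPM. Without DOX it was at 205 to 2122 CPM in 13 of the 14 ectopicFzd1 libraries without DOX. The library labelled ectopicFzd1 P3 replicate 3 was at 43.0 CPM, and the library labelled control with DOX P7 replicate 1 at 3.45 CPM against 20.7 to 54.3 in the other 14. Both go against their labels. Without them the counts of the genotype comparisons were 1, 1, 0 and 0 averaged over ages (ectopicFzd1, Fzd1lacZ, ectopicFzd1 with DOX and the DOX difference). The age comparisons of P14 with P0 or P1 hold neither library. Their counts of called members, again 29 and 31, could hardly move and say little of these libraries. In bulk tissue, fewer cells of a type and less RNA per cell cannot be told apart, and this holds for every value that follows. The labels do not say whether replicate libraries are from different animals, and p-values then measure only a spread that may be technical. One ID number stands in the titles of all 3 ectopicFzd1 libraries at P3 with DOX, which may therefore be 1 animal. Summed into 1 library, they left 1 member with an ectopicFzd1 effect with DOX that differed among ages, against 3 with the libraries apart. The comparison of P14 with P1 holds no P3 library, and no member was called at P3 alone. Its count of 31 members and the 6 called at single ages did not change and thus say little of these libraries. Another ID stands in the titles of ectopicFzd1 with DOX P10 replicate 3 and P14 replicate 1, which cannot both be right for 1 animal. Without these libraries 31 members were called for age with DOX and 4 at single ages.

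The largest changes of these genes were with age. Without DOX, 29 of the 46 tested members differed between P14 and P0, 22 lower and 7 higher, at an adjusted p under 0.05 in edgeR's quasi-likelihood test, where 58.8% of all genes differed. Lower at P14 were 4 of 4 tested members grouped as targets (Axin2, Nkd1, Nkd2 and Ccnd1) and 2 of 3 R-spondins. So were 6 of 8 receptors and co-receptors and both ligases that remove receptors. Of the ligands 3 of 10 were higher, and of the secreted inhibitors 3 of 9. Averaged over ages, ectopicFzd1 changed no member without DOX, where 9.19% of all genes were called, although Wnt4 passed once the libraries against their labels were left out. It changed none with DOX either (0.826% of all genes), although 5 members passed at P1. Fzd1lacZ changed 1 member, the secreted inhibitor Sfrp4, where 2.85% of all genes were called. Beta-catenin itself (Ctnnb1) changed in none of these averaged comparisons.

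The members covered a wide range of levels. Ctnnb1 was the most abundant, with a median of 174 TPM over the 72 libraries. It was followed by Wls (44.5 TPM), which carries Wnt proteins to the cell surface, and Apc (29.0 TPM), a scaffold of the beta-catenin destruction complex. Next came the cell cycle gene Ccnd1 (19.4 TPM) and the co-receptor Ryk (14.7 TPM). The ligands stood far lower. Wnt7b led them with 4.74 TPM, then Wnt4 with 2.595, Wnt11 with 2.02 and Wnt5a with 1.70 TPM. The other tested ligands had medians under that of Wnt5a: Wnt2b 0.865, Wnt5b 0.745, Wnt9a 0.620, Wnt6 0.565, Wnt16 0.510 and Wnt10b 0.420 TPM.

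Of the secreted inhibitors, which bind Wnt proteins or block co-receptors, Sfrp2 (12.6 TPM) and Sfrp1 (11.5 TPM) had the highest medians, with Sfrp4 at 5.34, Dkk3 at 5.23 and Wif1 at 2.33 TPM. Dkk2 (1.15 TPM), Notum (0.515 TPM), Sfrp5 (0.465 TPM) and Dkk1 (0.420 TPM) were lower. Among the R-spondins, secreted proteins that strengthen Wnt signals through Lgr receptors, Rspo1 was at 1.22, Rspo3 at 0.455 and Rspo2 at 0.230 TPM. Lgr4 (10.7 TPM) stood above Lgr5 (1.76 TPM) and Lgr6 (1.27 TPM), and Lrp6 (12.2 TPM) above Lrp5 (3.57 TPM). Tcf7l2 (1.69 TPM) had the highest median of the TCF/LEF factors, with Tcf7l1 at 0.885, Lef1 at 0.750 and Tcf7 at 0.695 TPM. The spreads of neighbouring genes in these orders overlap over libraries, as the plot of levels shows.

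The 10 untested members were the ligands Wnt1, Wnt2, Wnt3, Wnt3a, Wnt7a, Wnt8b, Wnt9b and Wnt10a, the R-spondin Rspo4 and the target gene Sp5. None of them had more than 17 counts in a library. Their group means ran from 0 to 0.177 TPM for Wnt1, 0.0233 to 0.190 for Wnt2, 0.0300 to 0.283 for Wnt3 and 0.0367 to 0.340 for Wnt3a. For Wnt7a they were 0 to 0.553 TPM, for Wnt8b 0 to 0.110, for Wnt9b up to 0.133 and for Wnt10a 0.00667 to 0.553. Rspo4 had group means of 0 to 0.247 TPM and Sp5 of 0 to 0.450 TPM. At this depth these members were too sparse to test.

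**Figure D1:**
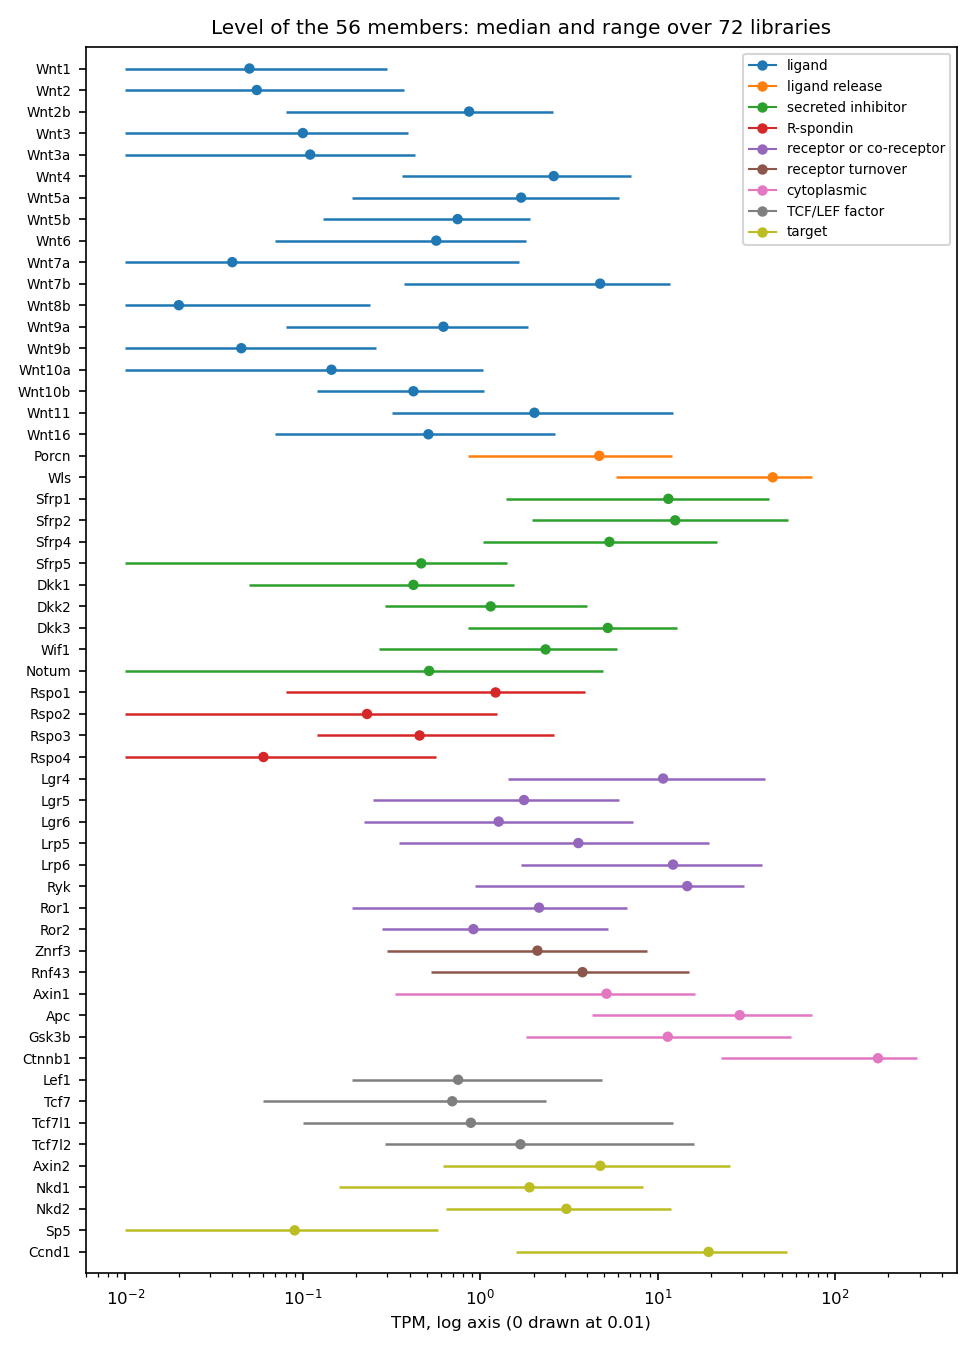
Level of the 56 members in TPM (log axis, 0 drawn at the left edge), one line per gene. Points are medians over the 72 libraries, lines run from the lowest to the highest library, and colours give the role. Ctnnb1 is highest with a median of 174 TPM, and among ligands Wnt7b with 4.74 TPM.

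The first age comparison asked how the members differ between P14 and P0 without DOX, as the mean over the 3 genotypes. Over all 22144 genes tested, 58.8% were called, so a large share is no feature of the Wnt genes. Of all genes 31.6% were higher and 27.2% lower. Of the members, 7 were higher and 22 lower, and their median log2 fold change was -0.23 against 0.06 for all genes. The members lean to lower values by these counts, which were not set against other gene lists. In 14 members every P14 library was below every P0 library, and in 1 (Porcn, which attaches the lipid to Wnt proteins) every P14 library was above. Of all genes tested, 9.29% had every P14 library below and 4.28% every P14 library above.

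All 4 tested members grouped as targets (Axin2, Nkd1, Nkd2 and Ccnd1) were lower at P14. Members grouped under other roles may also be targets: Rnf43, Znrf3 and Lgr5 fell, Dkk1 rose, and Lef1, Notum and Tcf7 were not called. Axin2, a negative regulator that beta-catenin switches on and the standard readout of the pathway, lies on chromosome 11 (GRCm38, 108920349 to 108950783). At P0 Axin2 was at 35.6, 37.3 and 38.8 CPM in control, 29.9, 31.2 and 38.9 in ectopicFzd1 and 33.0, 39.3 and 41.1 in Fzd1lacZ. At P14 Axin2 was at 20.6, 21.0 and 21.0 CPM in control, 21.0 and 24.8 in ectopicFzd1 and 18.7, 20.5 and 21.5 in Fzd1lacZ. Its groups did not overlap, and it fell in each genotype, by a mean log2 fold change of -0.75 ± 0.10, adjusted p = 2.62e-09. At P0 Nkd2 was at 38.5, 40.8 and 57.8 CPM in control, 30.9, 44.1 and 47.3 in ectopicFzd1 and 25.1, 37.4 and 39.3 in Fzd1lacZ. At P14 Nkd2 was at 14.2, 15.1 and 15.4 CPM in control, 14.6 and 14.6 in ectopicFzd1 and 14.4, 18.5 and 27.0 in Fzd1lacZ. Nkd2, a feedback inhibitor that acts on Dishevelled, fell more (-1.27 ± 0.14, adjusted p = 1.93e-11), although the highest P14 library, of Fzd1lacZ, lay above the lowest P0 library. Its relative Nkd1 fell by less (-0.53 ± 0.12), and so did Ccnd1, which drives entry into the cell cycle (-0.68 ± 0.12).

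Of the R-spondins and the Lgr receptors they act through, 2 of 3 each were lower. At P0 Rspo2 was at 5.10, 5.38 and 6.07 CPM in control, 3.47, 6.53 and 7.05 in ectopicFzd1 and 3.66, 3.77 and 3.96 in Fzd1lacZ. At P14 Rspo2 was at 0.472, 1.01 and 1.54 CPM in control, 0.876 and 1.32 in ectopicFzd1 and 1.001, 1.16 and 1.74 in Fzd1lacZ. Every P14 library of Rspo2 was under every P0 library (-2.14 ± 0.41, adjusted p = 1.34e-05). At P0 Rspo3 was at 5.03, 6.78 and 8.97 CPM in control, 4.19, 5.59 and 5.88 in ectopicFzd1 and 3.56, 4.78 and 5.89 in Fzd1lacZ. At P14 Rspo3 was at 1.03, 1.35 and 2.12 CPM in control, 1.75 and 2.65 in ectopicFzd1 and 1.60, 2.177 and 2.34 in Fzd1lacZ. Rspo3 fell without overlap (-1.55 ± 0.24, adjusted p = 1.90e-07), and Rspo1 was not called (-0.12 ± 0.19). Of the Lgr receptors, Lgr6 fell most (-1.29 ± 0.16, adjusted p = 1.14e-09). At P0 Lgr6 was at 29.0, 38.8 and 81.4 CPM in control, 42.7, 48.4 and 56.9 in ectopicFzd1 and 29.4, 31.5 and 45.9 in Fzd1lacZ. At P14 Lgr6 was at 16.5, 16.7 and 23.1 CPM in control, 14.3 and 14.9 in ectopicFzd1 and 18.7, 21.5 and 24.4 in Fzd1lacZ. Lgr5, a marker of stem cells in many epithelia, fell by less (-0.43 ± 0.13), and Lgr4 stayed within its error (-0.03 ± 0.09). The ligases Rnf43 (-0.88 ± 0.12) and Znrf3 (-0.57 ± 0.10), which R-spondins hold back and which are themselves targets of the pathway, both fell.

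Both beta-catenin co-receptors fell, Lrp5 by a log2 fold change of -0.81 ± 0.10 and Lrp6 by -0.62 ± 0.08. So did Ror1 (-0.76 ± 0.10) and Ror2 (-1.001 ± 0.17), receptor kinases that bind Wnt5a, while Ryk was at 0.07 ± 0.10 and not called. At P0 Tcf7l1 was at 6.65, 6.78 and 9.72 CPM in control, 6.504, 8.05 and 9.40 in ectopicFzd1 and 6.36, 7.32 and 8.15 in Fzd1lacZ. At P14 Tcf7l1 was at 2.59, 2.70 and 5.64 CPM in control, 1.66 and 2.63 in ectopicFzd1 and 3.63, 3.67 and 4.79 in Fzd1lacZ. Tcf7l1, a TCF factor that mostly represses targets, fell without overlap (-1.27 ± 0.23, adjusted p = 4.03e-06). Tcf7l2 fell as well (-0.80 ± 0.15), and Tcf7 (-0.07 ± 0.22) and Lef1 (0.42 ± 0.29) were not called. In the cytoplasm only the kinase Gsk3b passed the test, with -0.21 ± 0.09, and its call was lost under 7 of 11 other settings and 4 of 17 left-out libraries, DESeq2 among them. The scaffolds Axin1 (0.03 ± 0.10) and Apc (-0.05 ± 0.09) and Ctnnb1 (-0.06 ± 0.11) were not called.

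The ligands went both ways. At P0 Wnt11 was at 15.96, 22.7 and 32.8 CPM in control, 15.6, 15.7 and 18.3 in ectopicFzd1 and 15.2, 15.3 and 18.4 in Fzd1lacZ. At P14 Wnt11 was at 6.42, 6.60 and 10.01 CPM in control, 5.26 and 7.95 in ectopicFzd1 and 6.17, 6.53 and 8.72 in Fzd1lacZ. Wnt11, which acts mostly without beta-catenin, fell without overlap (-1.37 ± 0.17, adjusted p = 1.42e-09), and Wnt5a fell by less (-0.35 ± 0.12). At P0 Wnt7b was at 20.9, 25.3 and 26.8 CPM in control, 19.1, 19.7 and 24.9 in ectopicFzd1 and 25.1, 27.6 and 28.3 in Fzd1lacZ. At P14 Wnt7b was at 30.7, 38.0 and 47.2 CPM in control, 41.5 and 50.0 in ectopicFzd1 and 17.0, 42.2 and 48.4 in Fzd1lacZ. Wnt7b, the most abundant ligand, rose (0.75 ± 0.13, adjusted p = 1.85e-06; on log2(TPM + 1), where all genes shift, it was at -0.013), with 1 Fzd1lacZ library at P14 under all P0 libraries. Wnt10b (1.01 ± 0.30) and Wnt6 (0.97 ± 0.30) rose from low levels, and Porcn rose by 0.63 ± 0.10 (-0.013 on log2(TPM + 1)). The call for Wnt10b was lost under 4 of 11 other settings and 1 of 17 left-out libraries (without ectopicFzd1 P14 replicate 2, adjusted p = 0.258), and that for Wnt6 under 4 of 11 other settings. Wnt4 (-0.24), Wnt5b (-0.45), Wnt2b (0.09), Wnt9a (0.12) and Wnt16 (0.37) were not called, nor was Wls (0.19).

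Secreted inhibitors split 3 to 3, with 3 not called. At P0 Sfrp5 was at 0.283, 0.347 and 0.773 CPM in control, 0, 0.112 and 0.261 in ectopicFzd1 and 0.844, 0.989 and 1.88 in Fzd1lacZ. At P14 Sfrp5 was at 2.05, 3.07 and 4.05 CPM in control, 0.331 and 3.21 in ectopicFzd1 and 2.177, 2.34 and 4.07 in Fzd1lacZ. Sfrp5, one of the secreted Frizzled-related proteins that bind Wnt ligands, had the largest rise of all members (2.48 ± 0.39, adjusted p = 2.65e-07), from counts near 0, and 1 ectopicFzd1 library at P14 stayed at the P0 level. At P0 Sfrp4 was at 5.90, 10.3 and 12.1 CPM in control, 6.27, 6.504 and 8.50 in ectopicFzd1 and 7.32, 8.72 and 16.01 in Fzd1lacZ. At P14 Sfrp4 was at 13.1, 15.6 and 15.9 CPM in control, 13.2 and 18.7 in ectopicFzd1 and 34.0, 38.2 and 45.0 in Fzd1lacZ. Its relative Sfrp4 rose by 1.23 ± 0.21, adjusted p = 1.69e-06, with the 3 Fzd1lacZ libraries the highest. Dkk1, which blocks Lrp5 and Lrp6, rose from a low level (1.15 ± 0.35), a call lost under 4 of 11 other settings. Sfrp1 (-1.11 ± 0.10), Sfrp2 (-1.03 ± 0.14) and Dkk2 (-0.53 ± 0.19) fell. Dkk3 (0.17), Wif1 (0.08) and Notum (0.01), an enzyme that removes the lipid from Wnt proteins, were not called.

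Promoters are shown for 3 members that fell in both age comparisons, since a TCF/LEF factor would act on such DNA. The windows are RefSeq's, build GRCm38.p6, from 250 bases before to 50 after a transcription start, on the gene's strand. The letters searched were CTTTGAT and CTTTGAA on both strands, the core to which TCF/LEF factors bind, and a match is in capitals.
Wnt11, chr7:98834862-98835161, plus strand: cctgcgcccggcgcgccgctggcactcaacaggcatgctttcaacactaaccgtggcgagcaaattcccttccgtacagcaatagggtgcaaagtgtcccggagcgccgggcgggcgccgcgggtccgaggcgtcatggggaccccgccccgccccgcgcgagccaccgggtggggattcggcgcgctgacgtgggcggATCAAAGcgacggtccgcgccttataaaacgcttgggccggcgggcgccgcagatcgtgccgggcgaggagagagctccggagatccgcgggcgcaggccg
Axin2, chr11:108920099-108920398, plus strand: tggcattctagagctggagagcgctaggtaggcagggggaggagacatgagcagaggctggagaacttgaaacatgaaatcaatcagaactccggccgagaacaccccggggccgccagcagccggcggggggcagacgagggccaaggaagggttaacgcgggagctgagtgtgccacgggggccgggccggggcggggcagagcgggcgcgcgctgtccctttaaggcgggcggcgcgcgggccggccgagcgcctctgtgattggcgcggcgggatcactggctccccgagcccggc
Nkd2, chr13:73847582-73847881, minus strand: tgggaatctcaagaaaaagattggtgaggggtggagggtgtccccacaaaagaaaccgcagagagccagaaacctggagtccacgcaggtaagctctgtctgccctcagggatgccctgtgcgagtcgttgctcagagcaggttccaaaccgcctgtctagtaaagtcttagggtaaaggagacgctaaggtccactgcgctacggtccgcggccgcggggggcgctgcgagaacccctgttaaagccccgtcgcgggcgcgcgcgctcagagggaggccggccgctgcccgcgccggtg
RefSeq gives Wnt11 another start, whose window (chr7:98838595-98838894, not shown) holds no match. The Wnt11 window shown holds 1 match, on the reverse strand, beginning 51 bases before the start, and the windows of Axin2 and Nkd2 hold none. RefSeq windows were searched for 39 of the 56 members, 49 windows in all. Of these 4 hold a match (in Wnt11, Wnt5b, Dkk1 and Sp5), or 8.16%, against 8.65% of all 32851 windows. The share in members is near that of all genes, and the letters say nothing of binding.

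The second age comparison, P14 against P1 with DOX as the mean over control and ectopicFzd1, uses other libraries throughout. Of the 46 members 31 were called, 30 lower and 1 higher, where 48.4% of all genes were called, 21.8% higher and 26.6% lower. The members' median was -0.66, against 0.03 for all genes. With DOX, Tcf7l1 was at 6.94, 9.77 and 10.7 CPM in control and 8.47, 17.6 and 19.6 in ectopicFzd1 at P1, against 0.874, 2.37 and 3.14 and 1.91, 2.16 and 2.505 at P14. Tcf7l1 fell most (-2.41 ± 0.27, adjusted p = 3.59e-11) and its groups did not overlap. With DOX, Rspo3 was at 7.15, 10.2 and 11.4 CPM in control and 5.27, 8.03 and 9.07 in ectopicFzd1 at P1, against 1.31, 1.38 and 2.04 and 0.850, 2.59 and 3.76 at P14. Rspo3 followed (-2.15 ± 0.27, adjusted p = 9.74e-10), then Nkd2 (-1.73 ± 0.16, adjusted p = 6.27e-14). With DOX, Nkd2 was at 51.0, 64.5 and 65.1 CPM in control and 36.9, 47.9 and 54.7 in ectopicFzd1 at P1, against 13.6, 14.1 and 16.03 and 17.2, 17.7 and 17.8 at P14. With DOX, Ror2 was at 11.4, 13.2 and 13.6 CPM in control and 14.4, 18.7 and 19.8 in ectopicFzd1 at P1, against 4.15, 4.18 and 5.83 and 4.76, 4.89 and 6.05 at P14. Both fell without overlap, Ror2 by -1.61 ± 0.20, adjusted p = 4.68e-10.

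With DOX, Dkk2 was at 18.6, 21.7 and 22.0 CPM in control and 11.05, 17.3 and 18.6 in ectopicFzd1 at P1, against 4.97, 5.73 and 6.41 and 5.53, 6.05 and 7.77 at P14. This inhibitor fell by -1.58 ± 0.20, adjusted p = 1.08e-09. With DOX, Rspo2 was at 3.66, 3.99 and 4.05 CPM in control and 2.26, 3.26 and 4.84 in ectopicFzd1 at P1, against 0.987, 1.05 and 1.17 and 0.501, 1.70 and 2.59 at P14. Rspo2 fell by -1.54 ± 0.47, adjusted p = 0.00533, with overlap. With DOX, Sfrp2 was at 101, 114 and 137 CPM in control and 81.9, 112 and 114 in ectopicFzd1 at P1, against 31.1, 36.7 and 40.7 and 37.6, 41.7 and 55.3 at P14. Sfrp2 fell by -1.45 ± 0.17, adjusted p = 6.50e-11 without overlap. With DOX, Wnt11 was at 12.6, 14.3 and 16.5 CPM in control and 14.8, 15.4 and 20.6 in ectopicFzd1 at P1, against 3.79, 4.44 and 5.13 and 6.01, 9.08 and 9.14 at P14. Wnt11 fell by -1.39 ± 0.21, adjusted p = 1.19e-07. Axin2 fell by -1.04 ± 0.12, adjusted p = 3.18e-11, and all 4 TCF/LEF factors were lower, Tcf7l2 by -1.36, Lef1 by -0.99 and Tcf7 by -0.82 (log2 fold changes). Wnt7b was the only member to rise (0.80 ± 0.16, adjusted p = 2.49e-05; -0.22 on log2(TPM + 1)).

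Set side by side, 21 members were lower in both age comparisons, which is 21 of the 22 lower without DOX and 21 of the 30 lower with DOX. Of all genes 19.3% were lower in both and 15.9% higher in both. The 21 are the targets Axin2, Nkd1, Nkd2 and Ccnd1, the receptors Lgr5, Lgr6, Lrp5, Lrp6, Ror1 and Ror2, the ligase Znrf3 and the R-spondins Rspo2 and Rspo3. They also include Wnt5a, Wnt11, Sfrp1, Sfrp2, Dkk2, Gsk3b, Tcf7l1 and Tcf7l2. In 10 of them (Wnt11, Sfrp1, Rspo3, Lrp5, Lrp6, Ror1, Znrf3, Axin2, Tcf7l1 and Tcf7l2) the ages did not overlap in either comparison, which held for 5.66% of all genes. With DOX alone 17 members had every P14 library below every P1 library (12.9% of all genes) and none above (10.1%). Wnt7b was the only member higher in both, and it was not called in P14 against P3 with DOX (0.02 ± 0.15). Rnf43 was lower without DOX and at -0.29 ± 0.14 with DOX. Sfrp5, Sfrp4, Wnt10b, Dkk1, Porcn and Wnt6 were higher without DOX only by the test, and had log2 fold changes of -0.03, 0.28, 0.68, 0.76, 0.15 and 0.03 with DOX. Wnt4, Wnt9a, Dkk3, Wif1, Notum, Lgr4, Axin1, Lef1 and Tcf7 were called lower with DOX and not without. The difference between both age comparisons was not tested, since they start from different days. Ctnnb1, Apc, Wls, Ryk, Wnt2b, Wnt5b, Wnt16 and Rspo1 passed in neither.

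**Figure D2:**
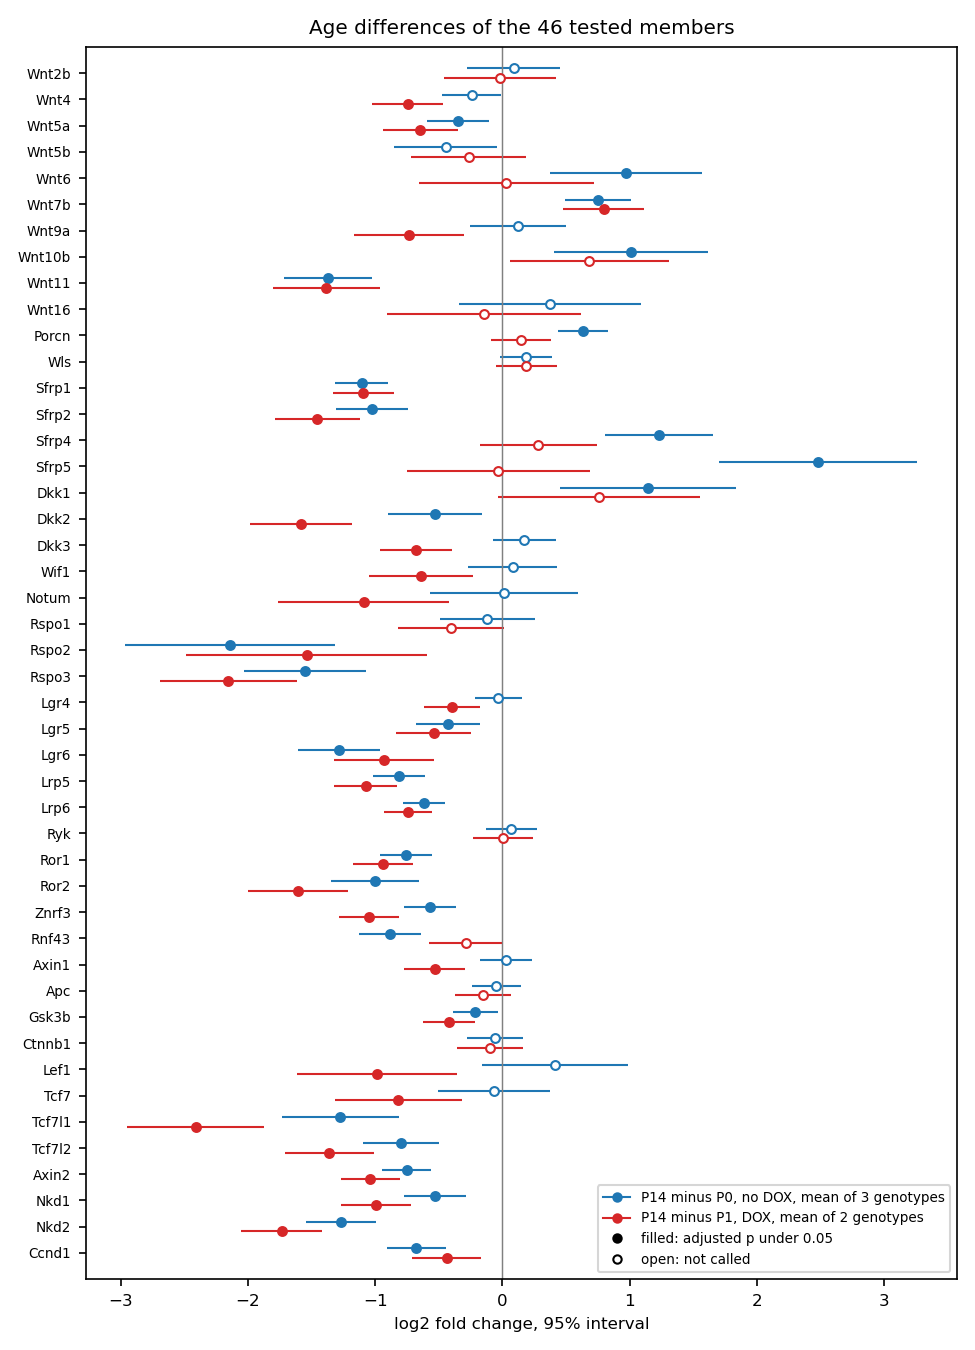
Log2 fold change with 95% interval of the 46 tested members, ordered by role, for P14 minus P0 without DOX (blue, mean of 3 genotypes) and P14 minus P1 with DOX (red, mean of 2 genotypes). Filled points have an adjusted p under 0.05; 21 members are filled to the left of 0 in both, and Wnt7b to the right in both.

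Markers of several cell types moved with age beside these genes. The summed level of 11 markers of globose basal cells and cell cycle, the dividing progenitors, went from 888 to 1263 CPM at P0 to 449 to 719.7 at P14, with 7 of 11 lower and none higher. The 6 horizontal basal cell markers went from 229 to 432 to 102 to 219 CPM, with 5 lower. The sum of 9 Bowman gland and nasal secretory markers went from 11084 to 43599 to 2416 to 10341 CPM, with 4 lower and 4 higher, and that of 5 endothelium markers from 87.0 to 151 to 44.0 to 74.0 CPM. On the mean over genotypes, all 15 markers of mature olfactory neurons and all 7 of sustentacular cells rose. Omp, one of the 15, rose in control and Fzd1lacZ. In ectopicFzd1 it went from 133 to 195 CPM at P0 to 28.1 to 31.3 at P14. Of all genes 31.6% were higher and 27.2% lower between these ages. Markers of cartilage, a tissue next to the epithelium, stood apart at P1 with DOX: their sum was 1286 to 3239 CPM there, 107 to 435 at P0 and 91.8 to 116 at P14 with DOX. All 9 cartilage markers were lower at P14 than at P1 with DOX (median log2 fold change -4.13), where 26.6% of all genes were lower. Muscle markers went from 12.7 to 63.7 to 4.68 to 10.4 CPM. None of the listed markers was at 0 in every library. The part of these cells in the members' values was not tested.

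Because of those P1 libraries, the comparison was also run from P3, with the same P14 libraries and P3 in place of P1. The 3 ectopicFzd1 libraries at P3, which share 1 ID, entered as separate libraries. If they are 1 animal, the SEs of this run are too small. It called 17 members, 15 lower and 2 higher, where 31% of all genes were called, 15.1% higher and 15.8% lower. All 15 were also lower from P1, and 14 of them were lower without DOX too. Tcf7l1 (-1.54 ± 0.29), Ror2 (-1.12 ± 0.21), Dkk2 (-1.04 ± 0.21), Nkd2 (-0.84 ± 0.17) and Axin2 (-0.63 ± 0.12) kept the call, and Sfrp4 (1.27 ± 0.26) and Wls (0.34 ± 0.12) were higher. Wif1, Dkk3 and Rspo2, lower from P1, had log2 fold changes of 0.54, 0.16 and 0.09 from P3. Wnt7b, the only member higher from P1, was at 0.02 ± 0.15 from P3 and not called. Among members lower from P1, Wnt11 (-0.52), Rspo3 (-0.44), Sfrp2 (-0.39) and Lrp6 (-0.20) were also not called from P3. The ID numbers in the titles fall into series by their first 3 digits. With the series as a term P14 against P0 can be estimated for Fzd1lacZ alone and only 2 members were called, Sfrp4 (2.78) and Dkk3 (1.26), both higher. That estimate rests on Fzd1lacZ P7, the only group with both series, where replicate 1 alone is of the series of P0. This library was unlike replicates 2 and 3 (chi-square per degree of freedom of 121 and 85.5). The values with the term thus rest on 1 library. Without DOX the ID series and age cannot be told apart in control and ectopicFzd1. With this term P14 against P1 with DOX rests on control, whose libraries at both ages are of 1 series. It called 30 members, 29 lower and 1 higher. Tested alone without the term, control with DOX had 37.8% of all genes called. P3 and P14 with DOX are of different series in both genotypes. On log2(TPM + 1), limma called 36 members without DOX, 35 lower and 1 higher, on a scale where the median of all genes shifted by -0.40 and that of the members by -0.70.

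The steps between consecutive ages without DOX gave most of their calls up to P7. Over all steps 18 different members were called, and 26 without Fzd1lacZ P10 replicate 2. That library differed most from its replicates. Only the steps to and from P10 hold it, so the added calls are of those later steps. From P0 to P3, 10 members were called (19.1% of all genes; 9.85% higher and 9.25% lower). Wnt11 (-1.08 ± 0.16, adjusted p = 6.86e-07), Lgr6 (-0.75), Rnf43 (-0.53), Lrp5 (-0.34), Nkd2 (-0.34) and Axin2 (-0.28) fell, and Sfrp4 (0.98), Dkk2 (0.47), Apc (0.25) and Lgr4 (0.25) rose. From P3 to P7, 15 were called (24.2% of all genes; 12.2% higher and 11.9% lower). Sfrp5 (1.53 ± 0.36, adjusted p = 0.00192) and Sfrp4 (1.07) rose. Sfrp2 (-0.63), Ccnd1 (-0.61), Ror1 (-0.53), Axin2 (-0.49), Sfrp1 (-0.49) and Lrp5 (-0.46) fell, as did Lrp6, Nkd2, Rnf43, Znrf3, Wnt5a, Apc and Lgr4 by -0.42 to -0.34. From P7 to P10 only Dkk2 was called (-0.70 ± 0.19, adjusted p = 0.0328; 2.33% of all genes), and from P10 to P14 none (0.524% of all genes; 5 members at an unadjusted p under 0.05; DESeq2 called 0). Apc, Lgr4 and Dkk2 thus rose in 1 step and fell in a later one, and their log2 fold changes over the whole span were -0.05, -0.03 and -0.53. Axin2, Nkd2, Lrp5 and Rnf43 fell in both early steps. Several of these calls are near the threshold: from P0 to P3, that for Nkd2 was lost under 7 of 11 other settings and 10 of 42 left-out libraries, Axin2 under 5 of 11 other settings and 2 of 42 left-out libraries, Lrp5 under 4 of 11 other settings, Apc under 5 of 11 other settings and 12 of 42 left-out libraries and Lgr4 under 5 of 11 other settings and 14 of 42 left-out libraries. From P3 to P7, Nkd2 lost it under 6 of 11 other settings and 5 of 42 left-out libraries and Wnt5a under 5 of 11 other settings and 7 of 42 left-out libraries, and from P7 to P10 Dkk2 under 2 of 11 other settings and 8 of 42 left-out libraries.

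**Figure D3:**
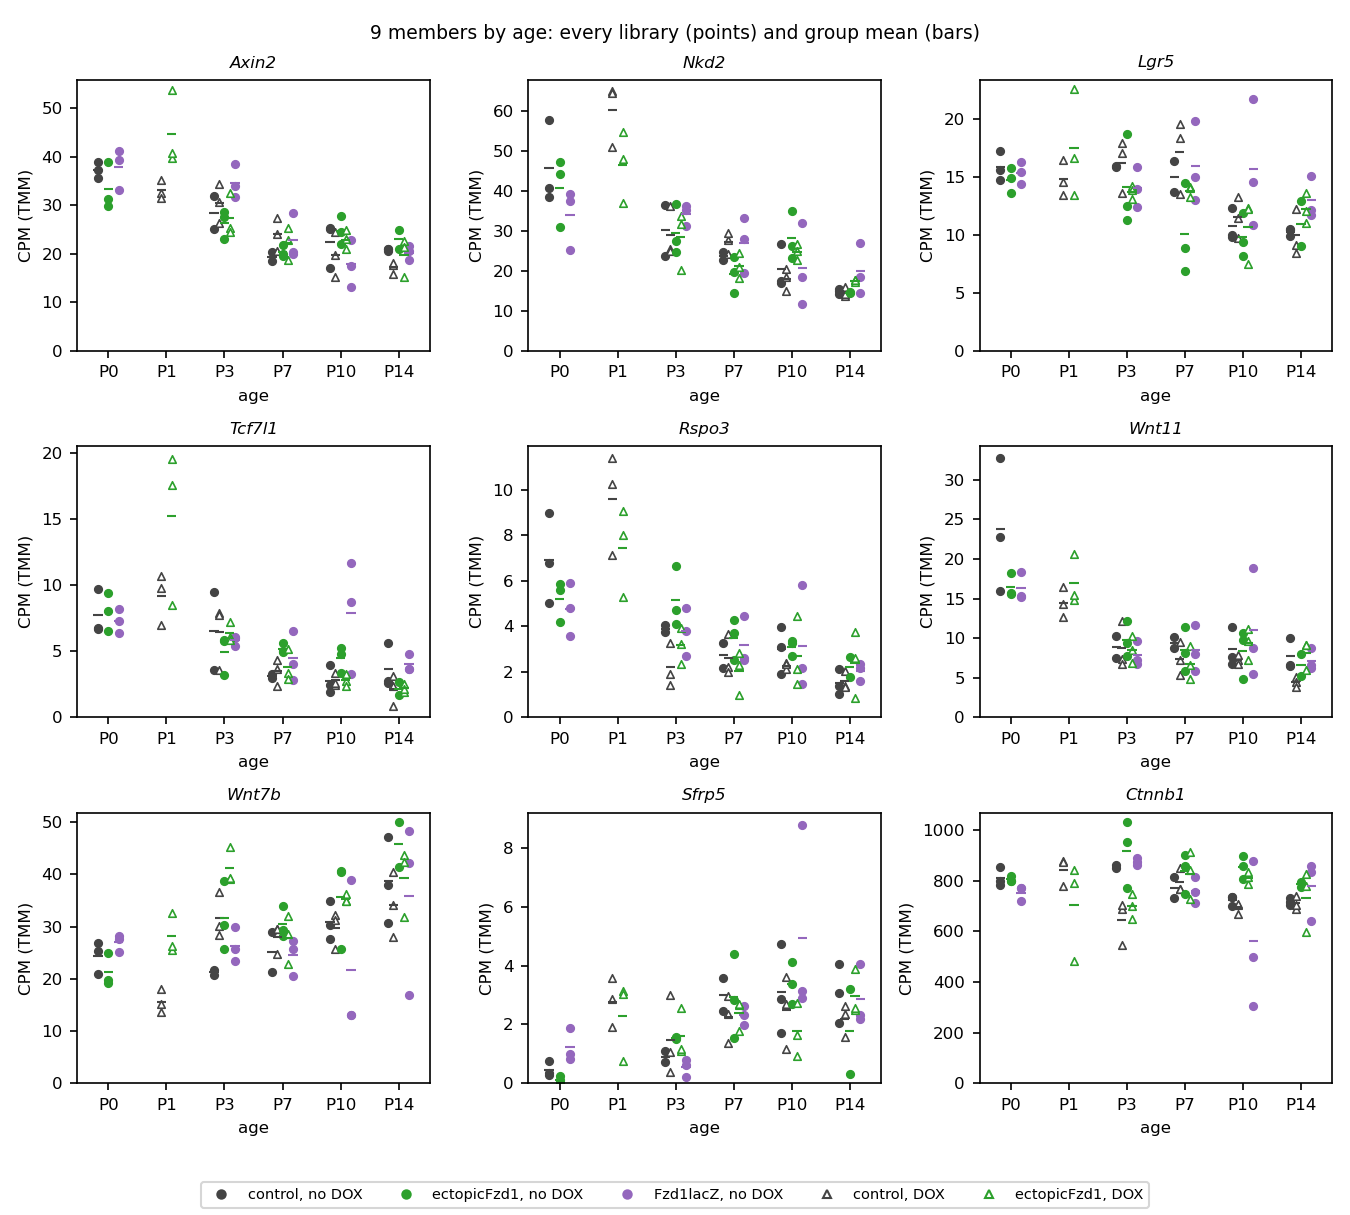
Level of 9 members in CPM after TMM scaling (linear axis from 0) by age. Each point is a library (filled circles without DOX, open triangles with DOX), bars are group means, and colours give the genotype. Axin2, Nkd2, Tcf7l1, Rspo3 and Wnt11 are lower at P14 than at P0 or P1, Wnt7b is higher, Sfrp5 rises between P3 and P7 without DOX, and Ctnnb1 has no called difference between P14 and P0.

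The genotype comparisons asked what ectopic Fzd1 and the Fzd1lacZ mutation do to the other genes of the pathway. Averaged over ages without DOX, ectopicFzd1 against control changed none of the 46 members, where 9.19% of all genes were called, and 6 members had an unadjusted p under 0.05. Log2 fold changes ran from -0.69 (Wnt16) to 0.35 (Sfrp4), and for 33 of the 46 the 95% interval lay within 0.5 on either side of 0. Axin2 was at 0.03 ± 0.08, Nkd2 at 0.01 ± 0.11, Lrp6 at -0.02 ± 0.06 and Ctnnb1 at 0.12 ± 0.09. Wnt4 came nearest to the threshold (0.25 ± 0.09, adjusted p = 0.0838), and it passed once both libraries that go against their labels were left out (0.29, adjusted p = 0.029 in edgeR's quasi-likelihood test). In the same comparison 14 of 15 markers of mature olfactory neurons fell and 5 of 11 markers of globose basal cells and cell cycle rose.

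With DOX, ectopicFzd1 against control again changed no member on average (0.826% of all genes; 2 members at an unadjusted p under 0.05). Wnt4 (0.32 ± 0.09, adjusted p = 0.0619) and Wnt7b (0.33 ± 0.10, adjusted p = 0.097) had the smallest adjusted p, and 32 intervals lay within 0.5 of 0. Control and ectopicFzd1 with DOX share an ID series at P1 alone. With the series as a term the effect rests on P1, and the 5 members described for P1 were called (Axin2, Wnt7b, Lrp5, Wls and Sfrp1, log2 fold changes of 0.42, 0.85, 0.66, -0.49 and -0.56). At the later ages genotype and series cannot be told apart. The ectopic effect without DOX minus that with DOX was called for no member (2.39% of all genes; 2 members at an unadjusted p under 0.05), and 25 intervals lay within 0.5 of 0. DOX against no DOX in control was called for none (0.867% of all genes; 3 members at an unadjusted p under 0.05), and 30 intervals lay within 0.5. Control with and without DOX share an ID series at P14 alone. At P3, P7 and P10 DOX and series cannot be told apart. Omp, given above, also differed between these control groups at P7 and P10. DESeq2 called 0 members in the ectopic comparison without DOX and in the DOX difference, Wnt4 in that with DOX and Lgr4 for DOX in control.

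Fzd1lacZ against control, averaged over ages, changed 1 member, Sfrp4 (0.56 ± 0.16, adjusted p = 0.0333), where 2.85% of all genes were called and 7 members had an unadjusted p under 0.05. DESeq2 called Apc, Dkk2 and Sfrp4. The call for Sfrp4 was lost when any of 11 of the 28 libraries was left out (control P10 replicates 1 and 2, Fzd1lacZ P3 replicate 1, control P7 replicate 1, Fzd1lacZ P0 replicate 2, Fzd1lacZ P7 replicate 1, control P3 replicate 2, control P0 replicate 3, Fzd1lacZ P10 replicate 2, control P14 replicate 1 and Fzd1lacZ P14 replicate 2), with an adjusted p of up to 0.146. Control and Fzd1lacZ share an ID series at P14 alone, so at the other ages series and genotype cannot be told apart. At single ages Sfrp4 was called at P14 alone, also with the series as a term. There it was at 13.1, 15.6 and 15.9 CPM in control and 34.0, 38.2 and 45.0 CPM in Fzd1lacZ, without overlap (1.42 ± 0.32, adjusted p = 0.0155), and it was the only member called at P14, where 0.714% of all genes were. At P0, P3, P7 and P10 no member was called (7.73%, 1.08%, 0.0858% and 0.285% of all genes), with 7, 6, 2 and 4 members at an unadjusted p under 0.05. DESeq2 called Apc at P10 and none at the other 3 ages. At those ages Sfrp4 differed by 0.16, 0.45, 0.08 and 0.71 (log2), and whether its effect differs among ages was not called (adjusted p = 0.221). Without Fzd1lacZ P10 replicate 2, 5 members were called on average and 15 at single ages. Of the single ages only P10 holds that library. With all libraries Axin2 was at 0.08 ± 0.08, Nkd2 at 0.08 ± 0.11 and Ctnnb1 at -0.07 ± 0.09 on average, and 32 of 46 intervals lay within 0.5 of 0. Dkk2 (0.46 ± 0.14, adjusted p = 0.0571) just missed the threshold.

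Sfrp2 was the only member whose Fzd1lacZ effect differed among ages (edgeR F test, adjusted p = 0.0369; 2.77% of all genes). At P0 it was at 86.6, 122 and 130.4 CPM in control and 64.5, 73.2 and 76.8 in Fzd1lacZ, all below control. At P14 it was at 33.4, 37.7 and 38.0 and 55.3, 60.9 and 66.7, all above control. The log2 differences were -0.66, 0.05, 0.55, 0.43 and 0.75 from P0 to P14, none of them called at a single age. Its P14 against P0 change also differed among genotypes (adjusted p = 0.0224; 3.94% of all genes): -1.63 in control, -1.23 in ectopicFzd1 and -0.22 in Fzd1lacZ (log2). Both tests use the same P0 and P14 libraries. Marker sums differed between these groups without overlap: at P0 globose basal cell and cell cycle markers were at 1135 to 1263 CPM in control and 888 to 1068 in Fzd1lacZ, Bowman gland and nasal secretory markers at 25722 to 43599 and 11084 to 19911, and mature neuron markers at 1334 to 2005 and 2309 to 2717. At P14 the globose basal cell sum was 449 to 490.1 CPM in control and 574 to 719.7 in Fzd1lacZ. The part of these cells in Sfrp2 was not tested. Each lost the call with the share of the satellite-like family as a covariate. The first lost it without any of 8 of 28 libraries (Fzd1lacZ P0 replicates 1, 2 and 3, control P0 replicates 2 and 3, control P14 replicates 2 and 3 and Fzd1lacZ P14 replicate 3), the second without any of 4 of 17 (Fzd1lacZ P0 replicates 1 and 2 and Fzd1lacZ P14 replicates 2 and 3).

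At single ages without DOX, ectopicFzd1 changed no member at P0, P3 and P7 (0.754%, 0.569% and 0.704% of all genes; 4, 4 and 1 members at an unadjusted p under 0.05; DESeq2 called 0). At P10 it changed 2, where 10.3% of all genes were called. Wnt4 was at 14.6, 16.2 and 17.4 CPM in control and 25.8, 27.5 and 31.4 in ectopicFzd1 (0.83 ± 0.21, adjusted p = 0.00687), and Sfrp2 at 32.1, 33.3 and 42.6 and 61.4, 69.0 and 74.4 (0.93 ± 0.25, adjusted p = 0.0103). Neither overlapped, and each lost its call without 1 library (ectopicFzd1 P10 replicate 2 for Wnt4, adjusted p = 0.0701; control P10 replicate 2 for Sfrp2, adjusted p = 0.0616). At the same age 5 of 10 markers of mesenchyme and fibroblasts were higher in ectopicFzd1, their sum being 3379 to 3899 CPM in control and 5566 to 7435 in ectopicFzd1, and their part in these values was not tested. At P14 Ror1 was at 14.2, 14.9 and 18.9 CPM in control and 27.1 and 29.2 in the 2 ectopicFzd1 libraries (0.81 ± 0.20, adjusted p = 0.0157; 1.76% of all genes). Its call was lost without any of 4 libraries (ectopicFzd1 P14 replicates 1 and 2 and control P14 replicates 1 and 2). At P14 without DOX control and ectopicFzd1 are of different ID series, so genotype and series cannot be told apart there. No member's ectopic effect without DOX differed among ages (0.357% of all genes; 8 at an unadjusted p under 0.05; DESeq2 called 0).

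With DOX, the P1 libraries carried most of the calls: 5 of the 46 members, where 14.8% of all genes were called. Wnt7b was at 13.6, 15.3 and 18.1 CPM in control and 25.6, 26.3 and 32.6 in ectopicFzd1 (0.85 ± 0.23, adjusted p = 0.00728). Lrp5 was at 50.5, 52.8 and 55.1 and 69.5, 89.1 and 92.2 CPM (0.66 ± 0.16, adjusted p = 0.00338). Axin2 was at 31.5, 32.5 and 35.2 and 39.6, 40.7 and 53.7 CPM (0.42 ± 0.15, adjusted p = 0.0463). These 3 were higher in every ectopicFzd1 library. Sfrp1 was at 221, 256 and 287 CPM in control and 123, 195 and 197 in ectopicFzd1 (-0.56 ± 0.17, adjusted p = 0.015). Wls was at 253, 264 and 281 and 145, 201 and 222 CPM (-0.49 ± 0.17, adjusted p = 0.0401), and both were lower in every ectopicFzd1 library. The cartilage sum was 1286 to 1510.0 CPM in control and 1918 to 3239 in ectopicFzd1 at P1, that of globose basal cells and cell cycle 1009.7 to 1149 and 656 to 889.9, and their part was not tested. Leaving out libraries one at a time ended the call in 1 of 30 cases for Wnt7b (ectopicFzd1 DOX P1 replicate 2), in 2 for Sfrp1 (control DOX P1 replicate 1 and ectopicFzd1 DOX P1 replicate 1), in 4 for Axin2 (control DOX P1 replicates 1, 2 and 3 and ectopicFzd1 DOX P1 replicate 1) and in 5 for Wls (control DOX P1 replicates 1, 2 and 3 and ectopicFzd1 DOX P1 replicates 1 and 2). Lrp5 kept its call in all 30. Of 14 other settings, 6 ended the call for Axin2, 3 that for Wls and 3 that for Sfrp1, among them no low-count filter. Omp was at 218 to 228 CPM in control and 20.6 to 27.9 in ectopicFzd1 at P1.

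At P3, P7 and P14 with DOX no member was called (0.181%, 0.569% and 0.199% of all genes; 4, 3 and 8 members at an unadjusted p under 0.05; DESeq2 called 0). At P10 Wnt4 was, at 11.9, 14.5 and 16.2 CPM in control and 25.7, 27.2 and 28.8 in ectopicFzd1 (0.94 ± 0.21, adjusted p = 0.0405; 0.0858% of all genes), without overlap, and it lost the call without any of 6 libraries (ectopicFzd1 DOX P10 replicates 1, 2 and 3 and control DOX P10 replicates 1, 2 and 3). Its level in ectopicFzd1 at P10 was thus above control both with and without DOX in separate libraries. The ectopic effect with DOX differed among ages for 3 members, where 9.6% of all genes were called. Lrp5 (adjusted p = 6.12e-04) had log2 differences of 0.66, -0.38, -0.46, 0.27 and 0.60 at P1, P3, P7, P10 and P14. Wnt4 (adjusted p = 0.0268) had -0.02, -0.17, 0.29, 0.94 and 0.55. Sfrp1 (adjusted p = 0.0437) had -0.56, 0.09, -0.33, 0.05 and 0.31. Lrp5 kept this call with any 1 library left out, Wnt4 lost it without any of 3 (control DOX P3 replicate 3, control DOX P10 replicate 3 and ectopicFzd1 DOX P1 replicate 1), and Sfrp1 lost it in 20 of 30 cases (adjusted p up to 0.15). With the 3 P3 libraries of 1 ID summed, Lrp5 kept the call (adjusted p = 0.00218), and Wnt4 (adjusted p = 0.0595) and Sfrp1 (adjusted p = 0.0646) did not.

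**Figure D4:**
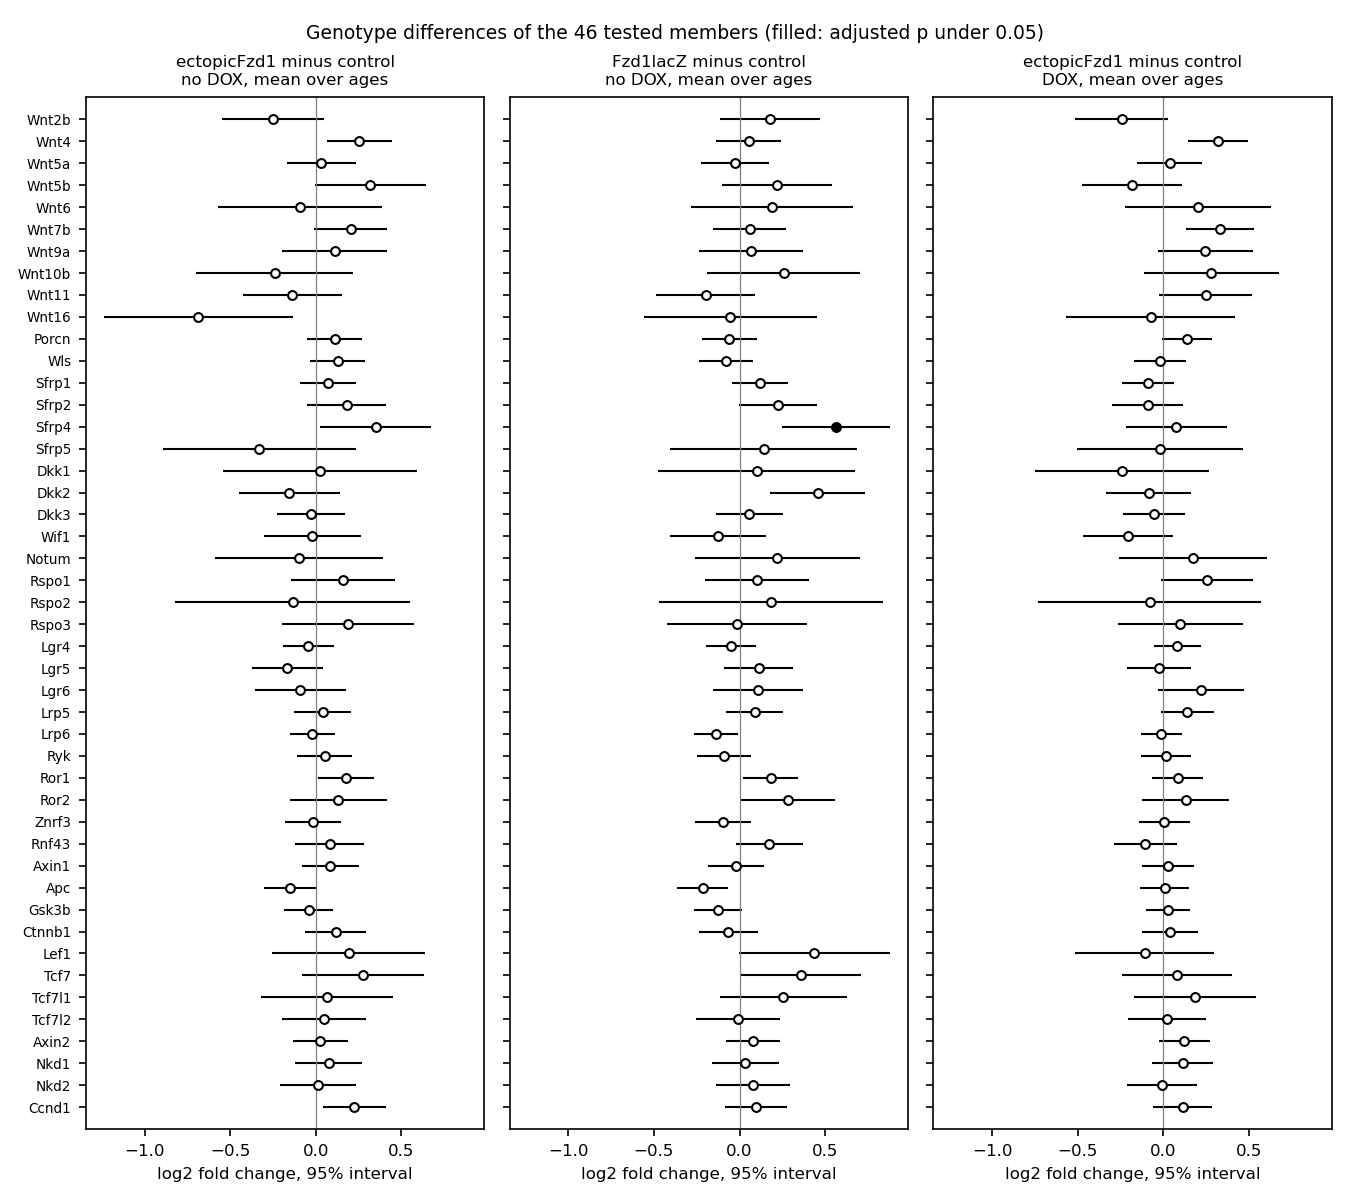
Log2 fold change with 95% interval of the 46 tested members for ectopicFzd1 minus control without DOX (left), Fzd1lacZ minus control (middle) and ectopicFzd1 minus control with DOX (right), each the mean over 5 ages. Filled points have an adjusted p under 0.05; Sfrp4 in the middle panel, at 0.56, is the only one.

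**Figure D5:**
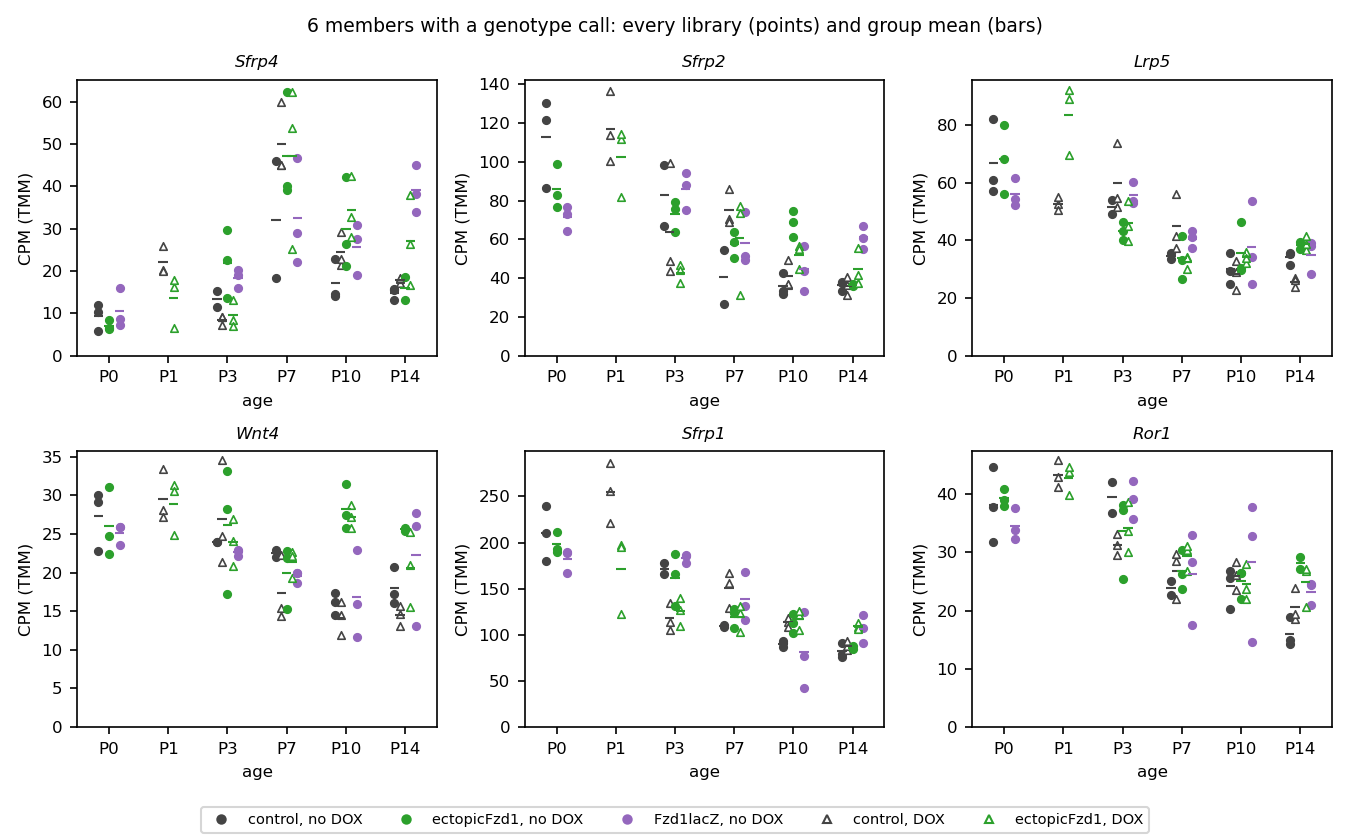
Level in CPM after TMM scaling (linear axis from 0) by age of 6 members with a genotype call. Points are libraries, bars group means, colours genotypes, and open triangles mark DOX. Sfrp4 at P14 is at 34.0, 38.2 and 45.0 CPM in Fzd1lacZ, above all control libraries without DOX of that age, and Wnt4 at P10 is higher in ectopicFzd1 than in control with and without DOX.

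Of 73 other genes of the pathway, listed beside the members, 68 were tested. Between P14 and P0 without DOX 35 were lower and 9 higher, where 27.2% of all genes were lower and 31.6% higher. Gpc3 (-2.29) and Gpc6 (-1.54), glypicans that hold Wnt proteins at the cell surface, and the inhibitor Sostdc1 (-2.12) had the largest falls (log2). The inhibitors Dkk4 (2.40) and Sost (2.19) and Ndp (1.94), a ligand of Fzd4 that is no Wnt protein, had the largest rises. With DOX, P14 against P1, 47 were lower and 5 higher (26.6% and 21.8% of all genes), led by Fzd9 (-2.64), Gpc6 (-2.39) and Gpc3 (-2.30). Averaged over ages, ectopicFzd1 without DOX raised 3, Myc (0.49), Bambi (0.29) and Dact1 (0.27), and lowered 2, Apc2 (-0.32) and Pygo1 (-0.31). In this comparison 9.19% of all genes were called. Fzd1lacZ raised 4, among them Dkkl1 (0.53), Myc (0.45) and Tle3 (0.42), and lowered Cxxc4 (-0.36), where 2.85% of all genes were called. Both comparisons use the same control libraries without DOX, so the values for Myc are not independent. Tle3 (0.44) was the only listed gene called between DOX and no DOX in control (0.867% of all genes). In ectopicFzd1 with DOX and in the DOX difference none passed (0.826% and 2.39% of all genes).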

How the data were processed

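Total RNA of olfactory epithelium was extracted with TRIzol and made into libraries with a stranded kit after removal of ribosomal RNA, per the labels. Per the submitters' processing notes, the authors used bcl2fastq 2.18, STAR 2.6.1c, RSEM and the mouse build mm10. One deposited table holds whole read counts per gene. The other holds TPM, which the authors derived with RSEM and which is relative to gene length and to each library's total. Which annotation was counted, and whether by strand, is not given in the sources used here, so genes that overlap or have antisense partners are uncertain.

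The count test was edgeR 4.0.16 in R 4.3.3, with filterByExpr by group (22144 of 54532 genes kept), TMM scaling and 1 term per group over all 72 libraries. Entries that name no gene, 52.8% to 91.0% of the table's counts per library, entered neither library sizes nor tests. A gene was called at a Benjamini-Hochberg adjusted p under 0.05 over the 22144 genes (quasi-likelihood test). Log2 fold changes carry their SE, and intervals are 95%. The satellite-like family is the 13 genes with a mean share over 0.005% whose log2 share correlates with that of Gm10800 at over 0.99. Scripts were tested on simulated data. Alternatives were DESeq2 1.42.0, its size factors, other filters, limma 3.58.1 on log2 TPM with pseudocounts of 1 and 0.1, covariates, summed libraries, and each library left out in turn with the dispersion trend of all libraries kept. Replicate pairs differed by more than sampling noise (chi-square per degree of freedom of 1.89 to 292). The highest values, 234 and 292, were those of the pairs with Fzd1lacZ P10 replicate 2. Fzd1lacZ P7 replicates 1 and 2 followed with 121. Values in every library are given for up to 8 called members of an averaged comparison, by size, and for members called at single ages. Gene positions are from GENCODE vM21. The members and lists were chosen with earlier results of these data known.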

Additional observations from a re-analysis of the deposited data

Results flagged for a closer look

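Effects on 4 members differed between ages or genotypes by a test of the difference itself (edgeR F tests, Benjamini-Hochberg over 22144 genes). The Fzd1lacZ effect on Sfrp2 differed among ages (adjusted p = 0.0369), from -0.66 at P0 to 0.75 at P14 on the log2 scale, where 2.77% of all genes were called. The P14 against P0 change of Sfrp2 also differed among genotypes (adjusted p = 0.0224), in part on the same libraries, where 3.94% of all genes were. Both calls for Sfrp2 were lost with the share of the satellite-like family as a covariate. With DOX the ectopicFzd1 effect differed among ages for Lrp5 (adjusted p = 6.12e-04), from -0.46 at P7 to 0.66 at P1. For Wnt4 (adjusted p = 0.0268) it ran from -0.17 at P3 to 0.94 at P10, and for Sfrp1 (adjusted p = 0.0437) from -0.56 at P1 to 0.31 at P14. These are 3 of 46 members, where 9.6% of all genes were called. With the 3 P3 libraries of 1 ID summed, Wnt4 (adjusted p = 0.0595) and Sfrp1 (adjusted p = 0.0646) lost the call.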

How the results depend on the processing

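Counts of members called are given against those in the report. In order of the comparisons these were 0, 1, 0, 0, 0, 29 and 31 for the averaged ones, 0, 1, 3 and 1 for the F tests, and 3, 1, 6 and 18 different members at single ages (ectopicFzd1, Fzd1lacZ, ectopicFzd1 with DOX) and over the steps. DESeq2 gave 3 for Fzd1lacZ, 1 for ectopicFzd1 with DOX, 1 for DOX in control, 2 for the Fzd1lacZ effect among ages, 5 for the ectopic effect with DOX among ages, 3 for the age change among genotypes and 2 for Fzd1lacZ at single ages. DESeq2 size factors in edgeR gave 1 for ectopicFzd1 with DOX, 1 for DOX in control and 2 for the age change among genotypes. No low-count filter gave 1 for ectopicFzd1 without DOX, 2 for Fzd1lacZ, 1 for the ectopic effect among ages, 3 for the Fzd1lacZ effect among ages, 5 for the age change among genotypes and 2 for Fzd1lacZ at single ages. A mean CPM of at least 1 gave 1 for ectopicFzd1 with DOX, 1 for DOX in control and 2 for Fzd1lacZ at single ages. A fit on only the groups compared gave 1 for ectopicFzd1 without DOX, 2 for ectopicFzd1 with DOX, 1 for DOX in control, 1 for the ectopic effect among ages, 0 for the Fzd1lacZ effect among ages, 8 for the ectopic effect with DOX among ages, 2 for the age change among genotypes and 6 for ectopicFzd1 at single ages. limma on log2(TPM + 1) gave 8 for Fzd1lacZ, 4 for the Fzd1lacZ effect among ages, 0 for the ectopic effect with DOX among ages, 0 for the age change among genotypes, 0 for ectopicFzd1 at single ages, 21 for Fzd1lacZ at single ages and 34 for the steps between ages. limma on log2(TPM + 0.1) gave 11 for Fzd1lacZ, 14 for the Fzd1lacZ effect among ages, 0 for the ectopic effect with DOX among ages, 0 for the age change among genotypes, 0 for ectopicFzd1 at single ages, 31 for Fzd1lacZ at single ages, 1 for ectopicFzd1 with DOX at single ages and 32 for the steps between ages. The title ID series as a term gave 5 for ectopicFzd1 with DOX, 2 for P14 against P0 and 2 for the steps between ages. The satellite-like share as a covariate gave 2 for Fzd1lacZ, 1 for ectopicFzd1 with DOX, 1 for DOX in control, 2 for the Fzd1lacZ effect among ages, 5 for the ectopic effect with DOX among ages, 0 for the age change among genotypes, 4 for Fzd1lacZ at single ages and 11 for ectopicFzd1 with DOX at single ages. Leaving out 8 libraries over 25% in that family gave 2 for ectopicFzd1 without DOX, 5 for Fzd1lacZ, 2 for ectopicFzd1 with DOX, 1 for DOX in control, 12 for the Fzd1lacZ effect among ages, 7 for the ectopic effect with DOX among ages, 7 for the age change among genotypes, 6 for ectopicFzd1 at single ages, 7 for Fzd1lacZ at single ages and 10 for ectopicFzd1 with DOX at single ages. Summing all 3 ectopicFzd1 P3 libraries with DOX (chosen after seeing the data) gave 1 for the ectopic effect with DOX among ages. Leaving out the 2 libraries against their labels gave 1 for ectopicFzd1 without DOX, 2 for the age change among genotypes and 2 for Fzd1lacZ at single ages. P3 in place of P1 (chosen after seeing the data) gave 17 for P14 against P1 with DOX. Leaving out the P1 libraries (chosen after seeing the data) gave 1 for ectopicFzd1 with DOX at single ages. Leaving out 1 library at a time gave 0 to 1 for ectopicFzd1 without DOX, 0 to 5 for Fzd1lacZ, 0 to 1 for ectopicFzd1 with DOX, 0 to 0 for the DOX difference, 0 to 0 for DOX in control, 28 to 31 for P14 against P0, 30 to 32 for P14 against P1 with DOX, 0 to 1 for the ectopic effect among ages, 0 to 12 for the Fzd1lacZ effect among ages, 1 to 4 for the ectopic effect with DOX among ages, 0 to 4 for the age change among genotypes, 2 to 4 for ectopicFzd1 at single ages, 0 to 15 for Fzd1lacZ at single ages, 3 to 9 for ectopicFzd1 with DOX at single ages and 17 to 26 for the steps between ages. Without Fzd1lacZ P10 replicate 2 the Fzd1lacZ counts were highest (5 averaged, 12 among ages, 15 at single ages), and without ectopicFzd1 DOX P1 replicate 3 those of ectopicFzd1 with DOX (9 at single ages). The cause was not tested. With limma on log2(TPM + 1), P14 against P0 turned sign for Wnt7b (-0.013) and Porcn (-0.013). With limma on log2(TPM + 1), P14 against P1 with DOX turned sign for Wnt7b (-0.22). With limma on log2(TPM + 0.1), P14 against P0 turned sign for Wnt7b (-0.015) and Porcn (-0.015). With limma on log2(TPM + 0.1), P14 against P1 with DOX turned sign for Wnt7b (-0.24). With the title ID series as a term, P14 against P0 turned sign for Lgr5 (0.30), Wnt5a (0.043), Dkk1 (-2.04), Sfrp2 (0.34), Wnt6 (-0.10), Rnf43 (0.13) and Znrf3 (0.071). There the term rests on 1 library, Fzd1lacZ P7 replicate 1. With the title ID series as a term, the steps between ages, P0 to P3, turned sign for Nkd2 (0.022) and Rnf43 (0.074). With P3 in place of P1, P14 against P1 with DOX turned sign for Wif1 (0.54), Dkk3 (0.16) and Rspo2 (0.086). None of these reversed values passed the threshold. With limma on log2(TPM + 1) the median of all genes shifted by -0.19 for Fzd1lacZ, -0.40 for P14 against P0 and -0.59 for P14 against P1. No paired analysis was possible because the titles carry no replicate numbers. With 2 or 3 libraries a group and medians of under 10 counts for Sfrp5, Rspo2, Dkk1, Notum, Wnt10b and Wnt16 the depth limits what could be called for these genes.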

Other observations

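Within each genotype the members that were lower with age pointed the same way, which the averaged comparison partly fixes. The 22 members lower at P14 without DOX were below 0 in control, ectopicFzd1 and Fzd1lacZ alike, 22 of 22 each. The members' median log2 fold change was -0.50 in control, -0.22 in ectopicFzd1 and -0.20 in Fzd1lacZ, against 0.06, 0.07 and -0.04 for all genes. Tested alone, control called 23 members lower and 4 higher, ectopicFzd1 15 and 5, and Fzd1lacZ 14 and 4, where 45.7%, 32.0% and 22.5% of all genes were called. Sfrp2 was the only member whose age change was called different among genotypes. With DOX the medians were -0.75 in control and -0.49 in ectopicFzd1. Rspo2, an R-spondin, had the lowest value of the members in all 3 genotypes without DOX (-2.44, -2.36 and -1.62), and with DOX it was Rspo3 in control (-2.61) and Tcf7l1 in ectopicFzd1 (-2.77).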
